A study of Morus alba with 35 samples.

Results

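In cell suspensions of white mulberry (Morus alba), 39 of 31401 annotated genes began at about the same level in control and elicited cells and ended far apart, low in controls and high in elicited cells. They were chosen from group means in CPM, a gene's reads per 1000000 counted reads of its library. A chosen gene had at least 3 CPM in controls at 0.5 h, a control mean at 72 h at least 2.5 times lower than at 0.5 h, and an elicited mean at 72 h at least 2.5 times higher than at 0.5 h. Its log2 ratio of elicited to control at 0.5 h, with 1 CPM added to each mean, lay within 0.5 of 0, and its control mean at 12 h was below 2 times that at 0.5 h. The control fall together with the criteria on 0.5 and 12 h was met by 1467 genes, and the elicited rise with the same criteria by 322, so the 39 genes were 2.66% of the former and 12.1% of the latter. The criteria on 0.5 and 12 h alone were met by 10453 genes. By these counts the rise was no more frequent among genes with the fall than among all 10453, which was not tested.

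The study followed suspension cells grown from stem-derived callus after elicitation. All flasks held cells filtered from a suspension 14 days old, washed and moved to fresh medium, so controls and elicited cells share this transfer. Elicited flasks received 50 mM methylated cyclodextrin (MBCD) and 100 µM methyl jasmonate (MeJA), and control flasks received the ethanol in which MeJA was dissolved. RNA sequencing covered 0.5, 6, 12, 24, 48 and 72 h, with 2 control libraries at each time, 3 elicited libraries at 0.5 and 6 h and 4 elicited libraries at each later time. A suspension is a culture of dividing, largely undifferentiated cells, and separate parent cultures are not stated for the flasks. The p-values therefore cover only the variation from flask to flask, which may be technical. In RNA from whole flasks, fewer cells that express a gene and less RNA per cell cannot be told apart. The 34 libraries held between 17191217 and 18897243 counts.

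Jasmonates are plant defence hormones. In Arabidopsis the active conjugate binds the receptor COI1, JAZ repressor proteins are degraded, and transcription factors such as MYC2 are released to activate defence and secondary metabolism genes. Cyclodextrins are cyclic sugars that bind small hydrophobic compounds and, with methyl jasmonate, are used to raise stilbene output of cultured plant cells. Oxyresveratrol, the compound named in the study's title, is a stilbene built from phenylpropanoid precursors by stilbene synthases. The deposited table pairs no identifier with a gene name or product, so what the 39 genes encode is not stated here and they are described by structure, position and course.

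The values at 0.5 and 72 h and the 12 h controls chose the genes and are given as description, with no test. The libraries of 6, 24 and 48 h and the elicited libraries of 12 h played no part in the choice. Tests compare only those libraries, in an edgeR quasi-likelihood fit of all 34 libraries, whose scaling and dispersion therefore also draw on the libraries that chose the genes. The fit covered the 20107 genes that passed the filter on low counts, with Benjamini-Hochberg adjustment over all of them and calls below 0.05. All 39 genes passed that filter. At the thresholds, the least control fall among the 39 was 2.55 times and the nearest gene left out had 2.48. The least elicited rise was 2.51 times, against 2.46 outside. The lowest 0.5 h control mean was 3.27 CPM, against 2.94 CPM outside. The largest log2 ratio at 0.5 h was 0.49 in size, against 0.544 outside, and the largest ratio of 12 h to 0.5 h controls was 1.95, against 2.01.

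Elicited libraries had a higher median of the 39 genes than controls at 6 h, and the distance was larger at 24 and 48 h. That median of the 39 genes, as log2(CPM + 1) relative to the 0.5 h control mean, was 0.38 in both control libraries at 6 h. It lay at -0.95 and -1.29 in the control libraries of 24 h and at -1.97 and -1.88 in those of 48 h. In elicited cells it was 0.67, 1.22 and 1.15 at 6 h, and between 0.86 and 1.34 at 24 h. At 48 h the 4 elicited libraries had 2.27, 2.38, 1.28 and 2.20. The medians of elicited and control libraries did not overlap at 6, 24 or 48 h. They did not overlap at 12 or 72 h either, but the 12 h controls and the 72 h libraries helped to choose the genes. Nothing is read from those 12 and 72 h medians. Together the 39 genes took 0.761% ± 0.154 of all counts in controls (SD, n = 2) and 0.769% ± 0.167 in elicited cells (SD, n = 3) at 6 h. At 48 h the shares were 0.148% ± 0.0757 (SD, n = 2) and 1.56% ± 0.365 (SD, n = 4). These shares rest mostly on 3 abundant genes, 2 on chromosome 12 and the chromosome 2 gene described below. At 48 h their means were 4784, 2928 and 2737 CPM in elicited cells and 272, 160 and 874 CPM in controls. The chromosome 2 gene had 410 and 1337 CPM in the 48 h control libraries, so the control share varied with it.

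**Figure D1:**
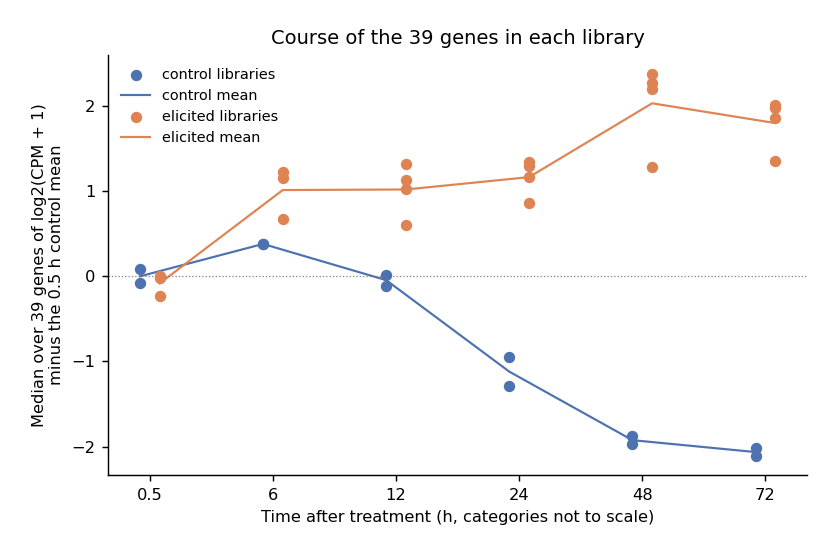
Median over the 39 genes of log2(CPM + 1) minus the 0.5 h control mean (vertical axis, log2 units) by time in hours (horizontal axis); points are libraries and lines join group means. Controls end at -2.11 and -2.02 at 72 h, and elicited 48 h replicate 3, at 1.28, lies below the other elicited libraries of its time. The 0.5 and 72 h libraries and the 12 h controls helped to choose the genes.

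At 6 h, elicited cells had higher levels of 9 of the 39 genes and lower levels of none (edgeR quasi-likelihood), where 3.64% of all tested genes were called higher and 2.6% lower. At an unadjusted p below 0.05, 15 were higher, against 10.3% of tested genes. Their log2 fold changes had a median of 0.33, against one of -0.01 over all tested genes, and 31 of the 39 were positive. Elicited libraries lay wholly above controls for 16 of the 39 genes, where this held for 12.3% of tested genes. Of the control libraries, leaving out 6 h replicate 1 gave 3 calls and leaving out 6 h replicate 2 gave 4.

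At 24 h, 37 of the 39 genes were higher in elicited cells and none was called lower, against 21.7% of tested genes called higher and 17.9% called lower (edgeR quasi-likelihood). Their median log2 fold change was 2.75, against 0.00 over all tested genes. Of the 37 genes, 28 had not been called at 6 h. Elicited libraries lay wholly above controls for 37 genes, where 20.7% of tested genes did so. Fold changes reached from -0.10 to 7.62 on the log2 scale. At 12 h, where the controls entered the choice of genes, the median difference was 1.40 and elicited libraries lay wholly above controls for 24 of the 39, against 12% of tested genes; nothing is read from either. The same holds at 72 h for all 39 genes, against 24.8% of tested genes.

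At 48 h, 38 of the 39 genes were higher in elicited cells, against 26.5% of tested genes (edgeR quasi-likelihood). The median log2 fold change was 4.99, against -0.01 over all tested genes. Elicited libraries lay wholly above controls for the same number, 38, against 20.7% of tested genes. In controls of this time, 11 of the 39 genes stood below 1 CPM on average. The remaining gene, on chromosome 8 (4855966 to 4860056, plus strand, 8 exons), was singled out after its values were seen. It stood at 1.84 and 4.71 CPM in the 48 h controls and at 2.32, 1.81, 2.70 and 3.52 CPM in the 48 h elicited libraries, so the groups overlapped, with a log2 fold change of -0.14 (SE 0.57, adjusted p = 0.86, edgeR quasi-likelihood). Its 72 h elicited libraries, which helped to choose it, held 14.4, 9.51, 11.3 and 7.31 CPM.

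The difference between elicited and control cells was larger at 48 h than at 6 h for 38 of the 39 genes, tested as such, where 17.5% of tested genes showed this direction (edgeR quasi-likelihood). The median of this change was 4.67 log2 units, against 0.04 over all tested genes. From 6 to 48 h, 37 of the 39 genes fell in controls, against 31.7% of tested genes, with a median log2 fold change of -3.20. The others were the chromosome 2 gene described below (0.61, adjusted p = 0.159) and a gene of 5 exons on chromosome 11 starting at 15399361 (-0.90, adjusted p = 0.216). In elicited cells 26 rose, against 29.2% of tested genes, and 2 fell, against 28.5%, with a median of 1.15. Of the 39 genes, 24 were called both lower in controls and higher in elicited cells, against 2.53% of tested genes. For 11 the control fall was called and no change was called in elicited cells, against 9.8% of tested genes. The control change was the larger in size for 33 genes and the elicited change for 6. Both sizes are measured from 6 h, when 13 of the 39 genes stood at least 2-fold above 0.5 h in both treatments. For these 13 the median changes were -4.30 in controls and 0.30 in elicited cells. For the other 26 they were -2.92 and 1.40. Nothing is read from the split between 33 and 6. When single libraries were left out, the calls ranged from 34 to 36 for the control fall and from 22 to 29 for the elicited rise.

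**Figure D2:**
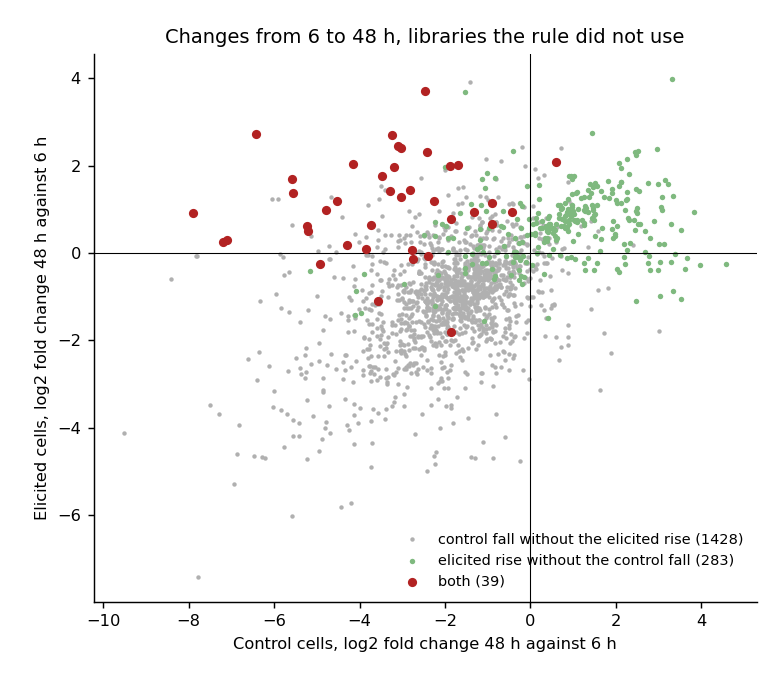
Log2 fold change from 6 to 48 h in controls (horizontal axis) and in elicited cells (vertical axis); each point is a gene, red for the 39 genes, grey for 1428 genes that met the control criteria without the elicited rise and green for 283 that met the elicited rise without the control fall. Of the red points, 34 lie above 0 in elicited cells and 1 lies above 0 in controls.

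Genes that met only part of the criteria took other courses over the same libraries. Most of the 1428 genes with the control fall but not the elicited rise fell in elicited cells as well. From 6 to 48 h in elicited cells, 1007 of them (70.5%) were called lower and 93 (6.51%) higher, with a median of -0.94. Of all tested genes, 28.5% were called lower and 29.2% higher. In controls 1177 (82.4%) were called lower, against 31.7% of tested genes, with a median of -1.76. Of the 283 genes with the elicited rise but not the control fall, 183 (64.7%) were called higher in elicited cells, against 29.2% of tested genes. In controls 179 of them (63.3%) were called higher from 6 to 48 h, against 30%. Their medians were 0.64 in elicited cells and 0.91 in controls. The elicited minus control difference at 48 h had a median of 1.03 in the former set and -0.18 in the latter, against 4.99 in the 39 genes. These sets are defined by 0.5 and 72 h values in opposite ways, and the differences between them were not tested.

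In controls, 30 of the 39 genes were called lower at 24 h than at 6 h, against 28.3% of tested genes, and 2 higher, against 26.6%, with a median log2 fold change of -2.21 (edgeR quasi-likelihood). Between 24 and 48 h, 18 were called lower, against 7.49%, and none higher, against 6.63%, with a median of -1.21. The 18 became 10 without control 48 h replicate 1. The fitted change was the more negative from 6 to 24 h for 25 genes and from 24 to 48 h for 14, a difference between intervals that was not tested. By group means, controls were highest at 6 h for 21 genes, at 12 h for 8, at 0.5 h for 7 and at 24 h for 3. The 2 genes called higher in controls at 24 h than at 6 h lie on chromosomes 2 and 5, and were singled out after their values were seen. The chromosome 2 gene (9806108 to 9807458, minus strand, 3 exons) had 609 and 398 CPM in controls at 6 h, 1734 and 1809 CPM at 24 h, and 410 and 1337 CPM at 48 h. Its 24 h elicited libraries held between 1248 and 1626 CPM, below both controls, and its 48 h elicited libraries between 1529 and 3308 CPM, above both. Its log2 fold change between treatments went from -0.10 (SE 0.32, adjusted p = 0.842) at 24 h to 1.83 (SE 0.35, adjusted p = 8.09e-05) at 48 h (edgeR quasi-likelihood). The chromosome 5 gene (15553860 to 15557423, minus strand, 6 exons) stood at 47.4 CPM in 24 h controls and 73.5 CPM in elicited cells of that time, both group means.

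In elicited cells the calls for single steps in time changed with single libraries. From 6 to 12 h, 9 of the 39 genes were called higher, against 23.4% of tested genes, and 6 lower, against 20.3%, with a median log2 fold change of -0.03 (edgeR quasi-likelihood). From 12 to 24 h, 4 were called higher, against 4.99%, and none lower, against 5.4%. From 24 to 48 h, 19 were called higher, against 2.04%, and none lower, against 1.48%, with a median of 0.81. Leaving out single elicited libraries lowered the 4 to 1 (12 h replicate 1, 24 h replicate 1 or 24 h replicate 2) or to 2 (12 h replicate 4 or 24 h replicate 3). The 19 were lowered to 5 by leaving out 48 h replicate 2, and to 8 by leaving out 24 h replicate 3 or 4 or 48 h replicate 1 or 4. Leaving out 48 h replicate 3 gave 28. There were 8 in a fit of only the libraries that played no part in the choice. Highest elicited group means were at 48 h for 19 genes and at 72 h for 16, with 3 at 6 h and 1 at 12 h.

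At each time from 12 h, 1 elicited library was the lowest of its group for most of the 39 genes. This was 48 h replicate 3 for 33 genes, where it was the lowest for 34% of tested genes. It was 12 h replicate 4 for 30 genes, against 4525 of the 20107 tested genes, and 24 h replicate 4 for 30, against 17.3%. At 72 h it was replicate 1 for 32 genes, against 25.7%; the 72 h libraries helped to choose the genes. For 28 genes, elicited 48 h replicate 3 lay within the range of the 24 h elicited libraries. It stood above both 48 h controls for 38 genes, and without it 38 of the 39 genes were still called higher at 48 h (edgeR quasi-likelihood).

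**Figure D3:**
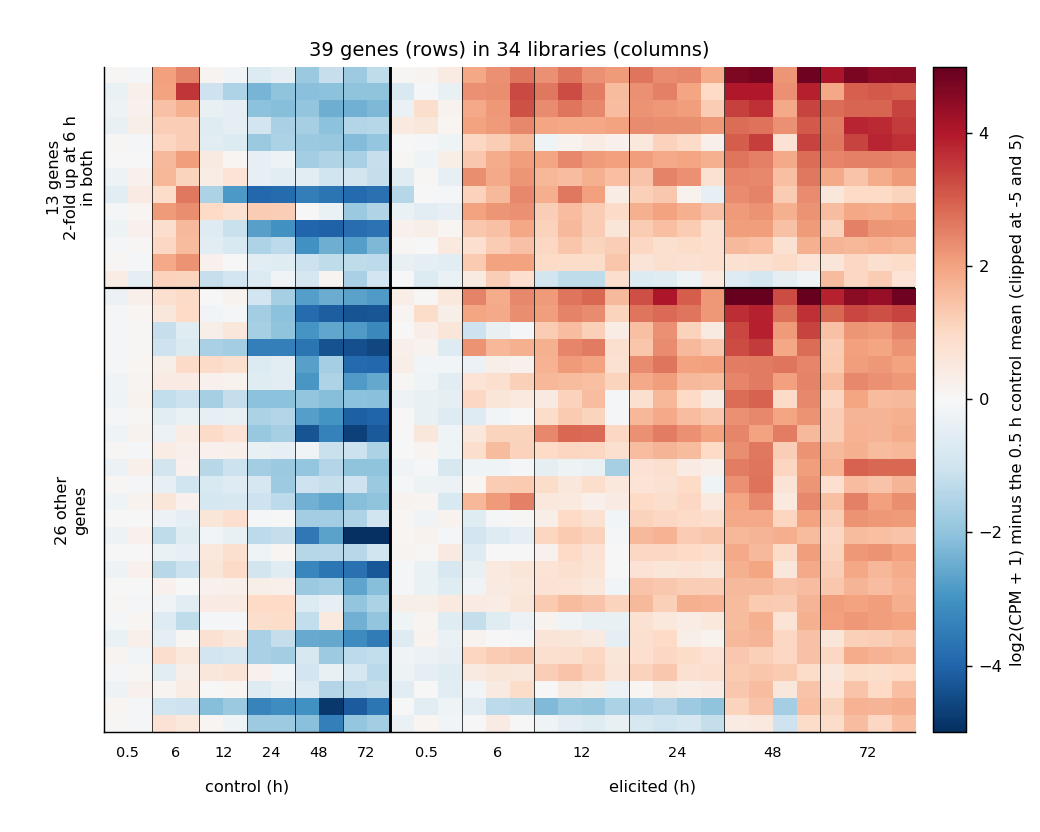
Each of the 39 genes (rows) in each of the 34 libraries (columns, by treatment and time in hours), coloured by log2(CPM + 1) minus the gene's 0.5 h control mean and clipped at -5 and 5. The upper 13 genes had group means at least 2-fold above 0.5 h at 6 h in both treatments; below the line are the other 26.

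At 6 h a subset of 13 genes stood at least 2-fold above the 0.5 h mean of the same treatment in controls and in elicited cells alike, by group means. The subset was defined after the values were seen and from its 0.5 and 6 h levels, so nothing is read from its 6 h level or from changes measured from 6 h. It included all 3 genes on chromosome 12 and both on chromosome 5 that are described below. As a description, its median log2 fold change between treatments was 3.24 at 24 h and 6.30 at 48 h, and that of the other 26 genes was 2.66 and 4.95. Both of the 2 genes among the 39 that fell in elicited cells from 6 to 48 h belong to this subset, so nothing is read from their falls. One lies on chromosome 4 (2217049 to 2228804, plus strand, 24 exons). Its elicited mean was 28.7 CPM at 0.5 h. Its elicited libraries had 100, 161 and 163 CPM at 6 h and between 63.5 and 77.0 CPM at 48 h. Its controls had 149 and 190 CPM at 6 h and 18.3 and 15.8 CPM at 48 h. At 48 h the groups did not overlap (log2 fold change 2.26, SE 0.17, adjusted p = 7.99e-12, edgeR quasi-likelihood).

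The greatest fitted rises in elicited cells from 6 to 48 h were those of Mal_HE_154X_1_chr003g016300 and Mal_HE_154X_1_chr009g009110, both with 2 exons. These genes, and those with the greatest control falls below, were picked by these changes. The sizes and p-values of their changes from 6 to 48 h, and their separation at 48 h, are therefore given as description. Mal_HE_154X_1_chr003g016300 (chromosome 3, 19432567 to 19434132, minus strand, 1021 exon bases) had 12.0, 20.0 and 25.1 CPM in elicited cells at 6 h and 273, 392, 116 and 278 CPM at 48 h. Its controls held 11 and 16.6 CPM at 6 h and 2.44 and 3.49 CPM at 48 h. The treatments overlapped at 6 h and were apart at 48 h, with all elicited libraries above both controls. The rise in elicited cells was 3.71 log2 units (SE 0.43, adjusted p = 3.4e-08) and the control fall -2.46 (SE 0.60, adjusted p = 0.0008, edgeR quasi-likelihood). At 72 h its elicited mean was 115 ± 31.2 CPM (SD, n = 4).

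Mal_HE_154X_1_chr009g009110 (chromosome 9, 10536598 to 10540393, minus strand, 1933 exon bases) had 39.2, 24.6 and 36.8 CPM in elicited cells at 6 h and 11.4 and 13 CPM in controls. At 48 h the elicited libraries held 303, 334, 67.7 and 234 CPM, while the controls were nearly without reads, at 0.0542 and 0.265 CPM. The elicited libraries lay above the controls at both times, although the difference at 6 h did not pass the test (log2 fold change 1.54, SE 0.53, adjusted p = 0.0838, edgeR quasi-likelihood). The rise in elicited cells was 2.71 log2 units (SE 0.44, adjusted p = 7.43e-06, edgeR quasi-likelihood).

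The greatest fitted control falls from 6 to 48 h were those of Mal_HE_154X_1_chr005g021730 and Mal_HE_154X_1_chr013g015330. Mal_HE_154X_1_chr013g015330, with a single exon (chromosome 13, 15791215 to 15792543, minus strand), went from 42.4 and 70.4 CPM to 0.488 and 0.423 CPM in controls, a log2 fold change of -7.19 (SE 0.55, adjusted p = 1.62e-11, edgeR quasi-likelihood). In elicited cells it had 59.1, 64.1 and 89.2 CPM at 6 h and 98.2, 98.7, 63.4 and 102 CPM at 48 h, ranges that overlap, and its change did not pass the test (0.26, SE 0.27, adjusted p = 0.409). Mal_HE_154X_1_chr005g021730, with 5 exons (chromosome 5, 20453791 to 20455724, plus strand), went from 19.2 and 58.6 CPM to 0.163 and 0.212 CPM in controls, a log2 fold change of -7.91 (SE 1.00, adjusted p = 1.07e-07). In elicited cells it had 23.1, 23.8 and 48.1 CPM at 6 h and 78.6, 79.7, 23.2 and 73.0 CPM at 48 h, with a change of 0.92 (SE 0.44, adjusted p = 0.0785, edgeR quasi-likelihood). In both genes every elicited library of 48 h lay above every control library of that time.

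**Figure D4:**
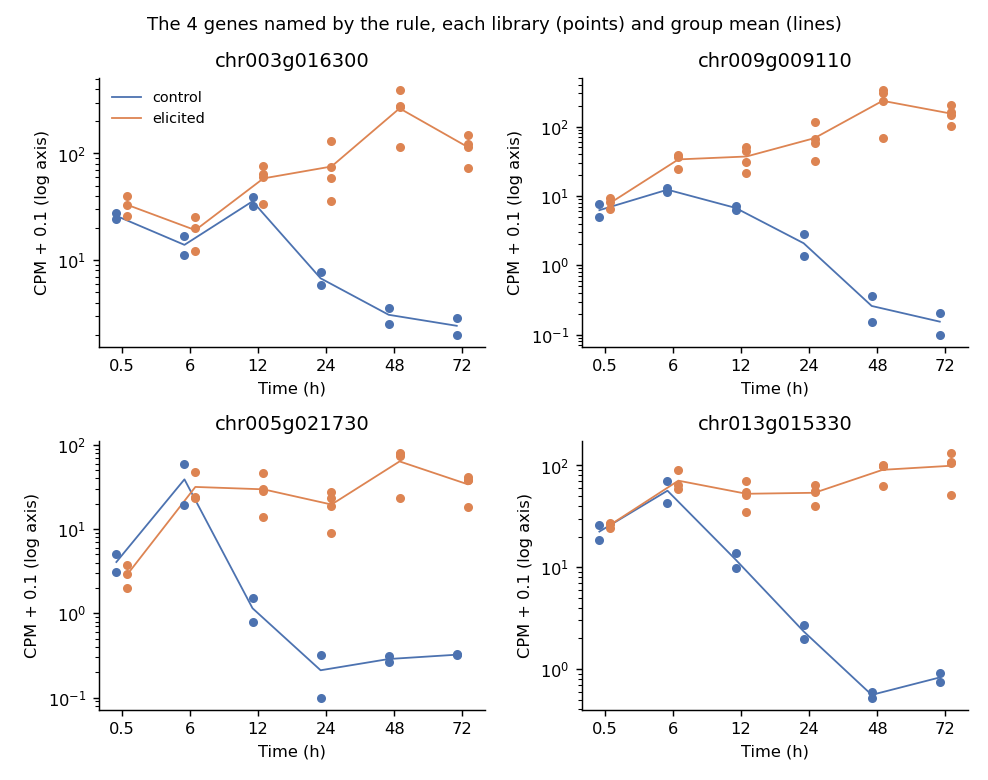
CPM with 0.1 added (log axis) by time in hours for the 4 genes with the greatest fitted rises in elicited cells (top) and falls in controls (bottom) from 6 to 48 h; points are libraries and lines join group means. At 24 and 48 h every elicited library lies above every control library of its time in all 4 panels. The same holds at 72 h, but the 72 h values helped to choose the genes. The 4 genes were picked by their changes from 6 to 48 h, so nothing is read from the separation at 48 or 72 h.

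The 39 genes lie on 13 chromosomes, with 6 on chromosome 1 and 5 each on chromosomes 5 and 8. They had a median of 3 exons and 1377 exon bases, against 5 exons and 1585 bases over all tested genes. Genes with 2 exons made up 30.8% (12 of 39), against 12% of tested genes, and those with a single exon 7.69%, against 15.8%. Among the 1428 genes with the control fall only, 14.1% had 2 exons and 20.3% a single exon. These shares were not tested. The 12 genes with 2 exons include the 3 of the chromosome 12 run and the overlapping pair on chromosome 1, both described below. They are therefore not all separate places in the genome. Per kilobase of exon, elicited levels at 48 h ran from 2.12 to 4857 CPM per kb with a median of 52.6, and control levels from 0.0458 to 931 with a median of 1.99. The highest 4 in elicited cells were, in order, 2 genes on chromosome 12, the chromosome 2 gene and a further gene on chromosome 12, at 4857, 4477, 2918 and 704 CPM per kb.

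Of the 39 genes, 9 lie within 10 genes of another of them, in 4 places. All but the last of these places are runs of genes of like exon structure on 1 strand, some with unlike genes between them. Of these the chromosome 12 run is the most abundant. It spans 1788713 to 1844523 on the plus strand and holds 7 genes with 2 exons: 5 with exons of 312 and 342 bases, and 2 with a first exon of 360 bases and a second of 631 or 625. Of the 7 genes, 3 met the criteria. The other 4 went the same way: all 7 were called higher in elicited cells at 24 and at 48 h, against 21.7% and 26.5% of tested genes. Their log2 fold changes were 1.25 to 3.24 and 2.29 to 6.30 (edgeR quasi-likelihood). None of the 7 was called at 6 h, where values lay between -0.66 and 0.12. All 7 fell in controls from 6 to 48 h, against 31.7% of tested genes, and 5 rose in elicited cells, against 29.2%. The counts for this and the next runs include the genes that met the criteria, by which the runs were found. The 4 genes outside the criteria missed the limits on the control fall or the elicited rise, with elicited ratios of 72 h to 0.5 h between 1.51 and 3.17. Within the run also lie a gene of 7 exons on the minus strand and a gene of 3 exons. Neither was called between treatments at 48 h (log2 fold changes -0.30 and 0.98, adjusted p = 0.343 and 0.0706, edgeR quasi-likelihood).

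The gene that opens the chromosome 12 run had 86.6 and 117 CPM in controls at 6 h and 81.7, 103 and 135 CPM in elicited cells. At 48 h its controls held 4.88 and 8.57 CPM and its elicited libraries 544, 588, 96.8 and 614 CPM. The gene of 985 bases had 2590 and 3527 CPM in controls at 6 h and 252 and 293 CPM at 48 h, against 5336, 4841, 3109 and 5849 CPM in elicited cells at 48 h. In both genes the treatments overlapped at 6 h and were apart at 48 h. Elicited 48 h replicate 3 was the lowest elicited library in each. How reads that match several genes were counted is not given in the sources used here, so reads of near-identical neighbours may be split or shared in this and the next runs.

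**Figure D5:**
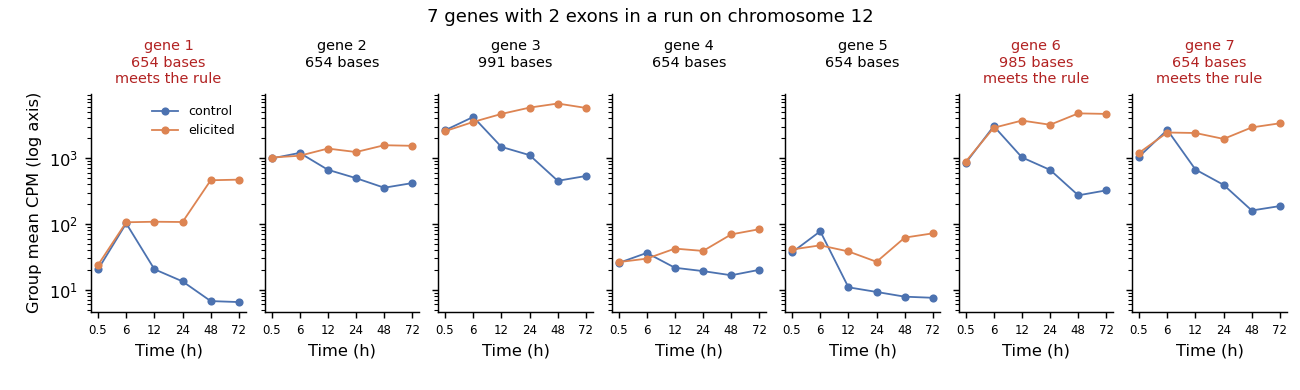
Group mean CPM (log axis) by time in hours in controls and elicited cells for the 7 genes with 2 exons of the chromosome 12 run, in order of position; those that met the criteria are marked in red. In all 7 the control mean at 48 h lies below the elicited mean, and none differs by the test at 6 h.

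The chromosome 5 run (20437791 to 20484485, plus strand) holds 5 genes with 5 exons, of which 2 met the criteria, Mal_HE_154X_1_chr005g021730 among them. All 5 were called lower in controls at 48 h than at 6 h, against 31.7% of tested genes (edgeR quasi-likelihood). All 5 were called higher in elicited cells at 24 and 48 h, against 21.7% and 26.5%. None was called between treatments at 6 h. None was called changed in elicited cells from 6 to 48 h, where 29.2% of tested genes were called higher and 28.5% lower. The gene between the 2 had 0.5 h means of 2.81 CPM in controls and 1.58 CPM in elicited cells. It missed both the minimum for controls and the limit on the 0.5 h ratio. In controls it went from 28.2 to 0.0800 CPM from 6 to 48 h by group means. The first gene of the run had 36.5 and 123 CPM in controls at 6 h and 0.813 and 0.582 CPM at 48 h, and 102, 112, 47.1 and 103 CPM in elicited cells at 48 h. Both of its 6 h control libraries lay above those of 24, 48 and 72 h. A gene of 8 exons on the minus strand within the run took another course. At 48 h it was called lower in elicited cells (log2 fold change -0.41, adjusted p = 0.00707, edgeR quasi-likelihood). In controls it was called higher at 48 h than at 6 h (1.47, adjusted p = 3.74e-09, edgeR quasi-likelihood).

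The chromosome 3 run (648039 to 694251, plus strand) holds 5 genes of 9 to 11 exons that share several exon lengths, and its first 2 genes met the criteria. All 5 were called higher in elicited cells at 24 and 48 h, against 21.7% and 26.5% of tested genes (edgeR quasi-likelihood). The least abundant had an elicited mean of 0.965 CPM at 48 h. At 6 h 3 were already called higher, against 3.64%, among them both that met the criteria. The first had 10.5 and 13.3 CPM in controls at 6 h and 110, 74.6 and 79.1 CPM in elicited cells, which do not overlap (log2 fold change 2.96, SE 0.50, adjusted p = 0.00046). At 48 h it had 0.867 and 0.159 CPM in controls and 228, 266, 88.4 and 164 CPM in elicited cells. The second ran at lower levels, with 0.163 and 0.0529 CPM in controls and 30.5, 34, 7.83 and 23.3 CPM in elicited cells at 48 h. The other 3 genes of the run had 0.5 h control means of at most 0.425 CPM, below the minimum of the criteria.

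The last place, on chromosome 1, is a pair that overlaps on opposite strands (4619802 to 4626743, minus, and 4625154 to 4626544, plus). At 48 h the minus-strand gene had 40.6, 40.7, 22.3 and 44.7 CPM in elicited cells and 2.39 and 2.38 CPM in controls, and the plus-strand gene 23.3, 19.3, 11.9 and 27.4 CPM and 1.46 and 1.53 CPM. One more gene, outside the criteria and on the plus strand (4619873 to 4623059), also overlaps the minus-strand gene and had a mean of 22.0 CPM in elicited cells at 48 h. The libraries were made with a stranded kit, but whether counting used the strand is not stated, so the reads of these genes cannot be told apart. A further gene among the 39, on chromosome 5 (18321613 to 18325241, plus strand), shares exon bases with another gene. Without these 3 genes, 35 of 36 remained called higher at 48 h (edgeR quasi-likelihood).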

How the data were processed

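The authors deposited raw read counts per gene, whole numbers with no normalization, as 1 table of 31401 genes and 34 libraries. The submitters' processing notes name fastp, STAR and featureCounts. No version, setting, genome build, annotation, strand setting or rule for reads that match several genes is stated there. Positions were taken from the count table as 1-based values. The kit was a stranded mRNA kit, per the labels' protocols. A pooled long-read sample is not analysed here.

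CPM was computed as count over column total. Tests used R 4.3.3 and edgeR 4.0.16: filterByExpr with a minimum count of 10, TMM scaling, then glmQLFit and glmQLFTest on all 34 libraries in 12 groups. P-values were adjusted by Benjamini-Hochberg over 20107 genes in each of 11 contrasts and called below 0.05. Each SE is the size of the fold change (log2) divided by the root of its F statistic. The genes, lists and comparisons were chosen with earlier results of these data known. Genes named by identifier passed a minimum of 2 for log2 CPM averaged over libraries and were the first 2 by rise in elicited cells and the first 2 by fall in controls from 6 to 48 h; genes given by position were chosen after their values were seen, as runs of neighbours or exceptions. DESeq2 1.42.0, other scalings, no filter, replicate blocks and leaving out libraries were alternatives. The fits were tested on simulated data. For controls from 6 to 48 h, 72% of planted 2-fold and 98% of planted 4-fold changes were called, with 5 false calls. For elicited cells these were 84%, 99% and 9. Planted genes all lay above a minimum mean count, so these shares do not cover genes with few reads. Intervals for counting error were not needed, since values are given per library. No genome came with the data, so no sequence is shown.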

Additional observations from a re-analysis of the deposited data

Results flagged for a closer look

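Among 64 sets of 4 elicited libraries (15 genes described above and the median of the 39 genes, at 12, 24, 48 and 72 h), 9 held a library far from the others by Dixon's criterion at the 95% level. Chance flags about 1 in 20 such sets, and the sets are not independent. At 48 h the library was elicited replicate 3 in 5 cases: the median of the 39 genes at 1.28, Mal_HE_154X_1_chr005g021730 at 23.2 CPM, Mal_HE_154X_1_chr013g015330 at 63.4 CPM, the gene that opens the chromosome 12 run at 96.8 CPM and the gene that opens the chromosome 5 run at 47.1 CPM, each below the other libraries. At 72 h it was elicited replicate 1, with Mal_HE_154X_1_chr005g021730 at 18.1 CPM and the minus-strand gene of the chromosome 1 pair at 25.0 CPM, again below. At 12 h it was elicited replicate 4, above the others for the gene on chromosome 8 (8.36 CPM) and the gene of 24 exons on chromosome 4 (104 CPM).

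The elicited minus control difference was larger at 48 h than at 6 h for 38 of the 39 genes, tested as an interaction in edgeR's quasi-likelihood fit. For the named genes this change was 6.17 log2 units in Mal_HE_154X_1_chr003g016300 (adjusted p = 1.85e-07), 9.13 in Mal_HE_154X_1_chr009g009110 (adjusted p = 1.78e-07), 8.83 in Mal_HE_154X_1_chr005g021730 (adjusted p = 4.45e-07) and 7.45 in Mal_HE_154X_1_chr013g015330 (adjusted p = 9.21e-10). The named genes were picked by their changes from 6 to 48 h, so these sizes and p-values are given as description. The sizes 9.13 and 8.83 (SE 1.08 and 1.10) rest on few control reads. The 48 h control means of the 2 genes with these sizes were 0.159 and 0.187 CPM.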

How the results depend on the processing

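For the 11 counts of called genes and the number of genes chosen, 174 values under alternatives stayed within 1.5 times the reported value and 16 did not; the 52 values of the 4 named genes kept their direction and their call. In a fit of only the libraries that played no part in the choice, the 4 genes called from 12 to 24 h in elicited cells were 1 and the 19 from 24 to 48 h were 8; without both elicited 12 h replicate 4 and elicited 48 h replicate 3 the 19 were 29. The cause was not tested. Leaving out 1 library of the compared groups at a time gave 3 to 9 genes higher in elicited cells at 6 h, 34 to 37 at 24 h, 38 to 38 at 48 h and 35 to 38 for the interaction. It gave 34 to 36, 26 to 31 and 10 to 16 genes for the control falls from 6 to 48, 6 to 24 and 24 to 48 h. For the elicited rises it gave 22 to 29 (6 to 48 h), 6 to 10 (6 to 12 h), 1 to 4 (12 to 24 h) and 5 to 28 (24 to 48 h). Where 1 control library was left, it was assumed to vary like the other groups. The number of genes chosen was 31 to 44 without 1 library, sharing 25 of 39 genes without control 0.5 h replicate 2, and 45, with 30 shared, with TMM-scaled CPM.

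The labels do not say that replicate numbers pair flasks. Same-numbered control and elicited deviations correlated between -0.088 and 0.141, and over 0.1 in 2 of 12 pairs. With 2 controls at each time, these correlations cannot exclude pairing. With the replicate block by title number, 38 genes were higher at 48 h, 36 fell in controls and 27 rose in elicited cells from 6 to 48 h. By flask number these were 38, 36 and 26. Scaling by library size alone moved the median of all tested genes to -0.244 at 48 h between treatments and to 0.207 from 6 to 48 h in controls, and left 38 and 35 calls. Leaving out genes that overlap or neighbour one another was added after the data were seen and kept 29 of 30 non-neighbours called at 48 h.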
